A study of Mus musculus with 3 samples.

Results

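The CC chemokines described here are 10 genes among the 21750 features of a mouse hippocampal single-cell library: Ccl2, Ccl7, Ccl12, Ccl8, Ccl3, Ccl4, Ccl5, Ccl6, Ccl9 and Ccl24. They were chosen as a family of secreted signals, all 10 were found by symbol, and each had at least 802 UMIs (unique molecular identifiers, 1 per captured transcript) in the kept cells. The library came from Aldh1l1CreERT2;Rosa26-LSL-tdTomato mice, in which a tamoxifen-inducible recombinase under an astrocyte promoter switches on a red reporter. Their hippocampus had received a Cre-dependent AAV-TIGRi-Hopx vector, which knocks down the homeodomain gene Hopx and carries EGFP, and tissue was taken 3 weeks after tamoxifen. Cells of pooled mice were sorted for tdTomato and EGFP. Each of the series' 3 samples is the sole one of its kind, and every cell here comes from injected hippocampus. No library without the vector was analysed, so no effect of the vector on a chemokine was measured. Chromatin of primary astrocytes, precipitated with anti-Flag or IgG, was not analysed here.

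CC chemokines are small secreted proteins with a pair of adjacent cysteines, and they steer leukocytes through G protein-coupled receptors. Ccl2, Ccl7, Ccl12 and Ccl8 are monocyte chemoattractants, of which Ccl2, Ccl7 and Ccl12 act mainly through Ccr2. Ccl3, Ccl4 and Ccl5 attract monocytes and T cells, while Ccl6 and Ccl9 are rodent ligands of Ccr1 and Ccl24 is an eotaxin that acts through Ccr3 on eosinophils. In brain, microglia of the parenchyma and macrophages of the meninges, perivascular spaces and choroid plexus are known sources, and many of these genes are switched on by NF-kappaB, by interferons or by the handling of live tissue.

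Promoters of 2 pairs of neighbouring members are shown because one pair differed between microglia and border macrophages and the other was alike over cell types. Ccl12 and Ccl8 are consecutive members of the chromosome 11 cluster, in the order Ccl2, Ccl7, Ccl11, Ccl12, Ccl8. Ccl9 and Ccl6 are neighbours farther along, in the order Ccl5, Ccl9, Ccl6, Ccl3, Ccl4, and Ccl24 lies beside Ccl26 on chromosome 5. The sequences are the 250 bases before each start in RefSeq on GRCm38.p6, read 5′ to 3′ on the gene's strand. They cover chr11:82101595-82101844 (plus strand) for Ccl12, chr11:82114935-82115184 (plus) for Ccl8, chr11:83593088-83593337 (minus) for Ccl6 and chr11:83578637-83578886 (minus) for Ccl9. Capitals mark matches to the motifs searched.
Ccl12: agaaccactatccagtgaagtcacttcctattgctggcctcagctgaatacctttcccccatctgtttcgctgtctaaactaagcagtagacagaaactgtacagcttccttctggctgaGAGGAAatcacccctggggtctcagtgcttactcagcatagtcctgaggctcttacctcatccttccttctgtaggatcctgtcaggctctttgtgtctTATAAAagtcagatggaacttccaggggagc
Ccl8: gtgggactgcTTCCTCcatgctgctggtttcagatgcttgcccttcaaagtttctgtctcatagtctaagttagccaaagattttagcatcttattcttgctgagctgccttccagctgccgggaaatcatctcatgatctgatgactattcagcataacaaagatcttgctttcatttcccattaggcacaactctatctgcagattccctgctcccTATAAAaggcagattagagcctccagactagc
Ccl6: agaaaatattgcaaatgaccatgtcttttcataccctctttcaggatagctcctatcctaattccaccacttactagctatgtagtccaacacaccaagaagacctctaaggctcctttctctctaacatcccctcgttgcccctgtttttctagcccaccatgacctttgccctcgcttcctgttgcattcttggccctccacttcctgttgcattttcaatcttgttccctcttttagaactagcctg
Ccl9: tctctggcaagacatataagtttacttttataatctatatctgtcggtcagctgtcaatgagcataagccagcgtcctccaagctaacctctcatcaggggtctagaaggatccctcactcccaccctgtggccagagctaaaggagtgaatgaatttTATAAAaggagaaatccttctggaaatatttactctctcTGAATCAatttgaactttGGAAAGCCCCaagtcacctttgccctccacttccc
Of the 10 genes, 5 matched an entry, with Ccl3 the fifth. The motifs were searched on both strands except TATAAA, which was read on the gene's strand. Both Ccl12 and Ccl8 held TATAAA, 31 and 32 bases before the start, a match found in 7.59% of 32851 promoters. Both also held GAGGAA, the core bound by the myeloid factor PU.1, at -130 in Ccl12 and on the opposite strand at -240 in Ccl8, against 23.3% of all promoters. Ccl9 held an NF-kappaB consensus on the opposite strand at -35 (7.25% of promoters), TGANTCA, the AP-1 motif, at -53 (6.75%), and TATAAA at -92, and Ccl3 held GAGGAA on the opposite strand at -33. The Ccl6 window held no match, and no window held TTGCNNAA, a C/EBP motif (9.56%), or the interferon-stimulated response element (2.98%). Ccl6 and Ccl9 shared a run of 13 bases, gccctccacttcc, and the longest run shared by Ccl12 and Ccl8 was 8 bases, ggaaatca. A match is a run of letters and no measure of binding.

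The library held 6485 cells with at least 500 genes and at most 15% mitochondrial UMIs, with 610 to 42440 UMIs each and a median of 5564. Cell types were gated on marker genes outside the chemokine list, a cell taking the type with the largest share of its markers detected, and 5853 cells fell into a type. Microglia were 2454 cells, led by Tmem119, P2ry12 and Siglech. Border macrophages were 261 cells, led by Lyve1, Cd209f and Cd163. A recruited-type group of macrophages or monocytes held 27 cells led by Saa3, Chil3 and F10, and T or NK cells were 23, led by Xcl1, Cd40lg and Ifng. Other types with at least 20 cells were endothelial (1579), choroid plexus (617), ependymal (571), astrocyte (147), oligodendrocyte (90), neuron (28) and fibroblast (21). The reporters were rare in the cells that held the chemokines: tdTomato was found in 4 of 261 border macrophages and 21 of 2454 microglia, against 28 of 147 astrocytes. EGFP, carried by the vector, was found in 0 border macrophages and 1 microglial cell, in 2 of 147 astrocytes and in 45 of 571 ependymal cells. All values come from 1 library and lack a replicate, so no p-value is given, and intervals are exact 95% intervals that cover counting error only.

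Chemokine RNA was concentrated in myeloid cells and made up a large share of their RNA. Levels are given as CPM, UMIs summed over the cells of a type and scaled to its total. The 10 genes took 1.54% of all UMIs in border macrophages, 0.779% in the recruited-type group, 0.488% in T or NK cells and 1.89% in microglia. In the other types with over 100 cells they took 0.101% in endothelial cells, 0.0504% in ependymal cells, 0.0369% in astrocytes and 0.0333% in choroid plexus cells. There, few cells held much of it: the richest 1% of cells held 55.0% of the type's chemokine UMIs in endothelial cells, 55.9% in ependymal cells, 43.3% in astrocytes (1 cell) and 47.0% in choroid plexus cells, against 4.18% in microglia. Border macrophages were the highest type for 5 of the 10 genes, microglia for 2 and the recruited-type group for 3.

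**Figure D1:**
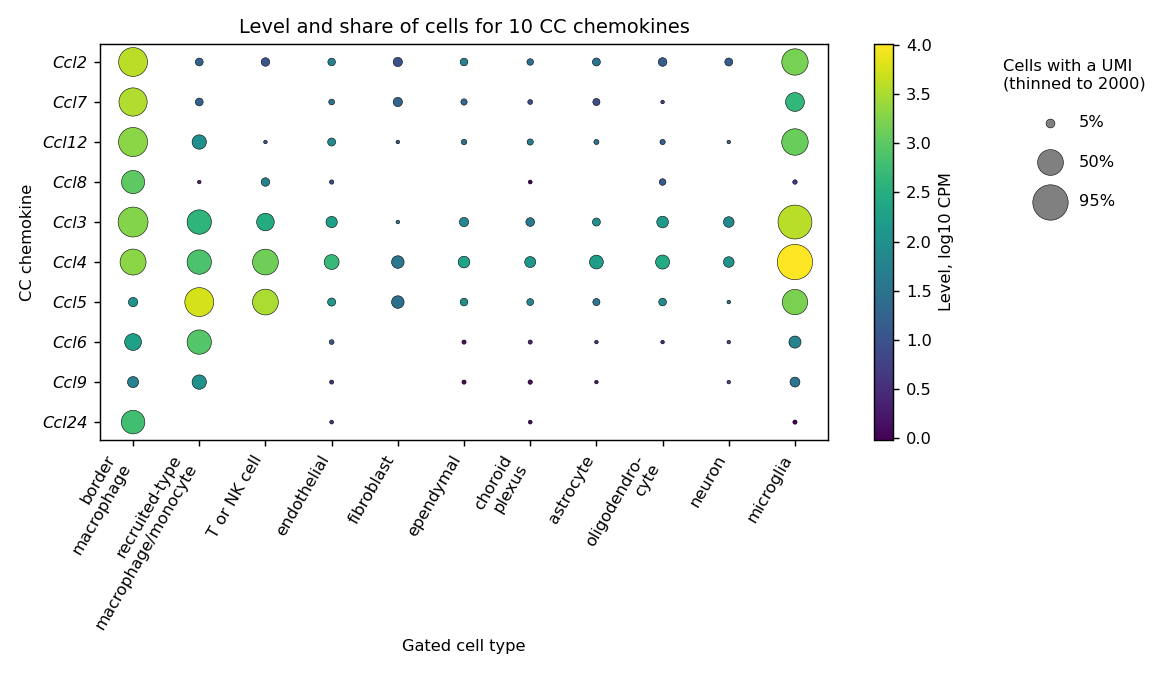
Level and spread of the 10 chemokines over 11 gated cell types. Colour is the log10 of the level (CPM) summed over a type and dot size is the share of cells with a UMI after thinning to 2000 UMIs; Ccl8 and Ccl24 have large dots in border macrophages alone, and Ccl4 in microglia has the brightest.

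The monocyte chemoattractants Ccl2, Ccl7 and Ccl12 were highest in border macrophages, with microglia next. Ccl2 stood at 3981 CPM (3869 to 4095) in border macrophages, 17.9 CPM from 8 UMIs in the recruited-type group and 1520.2 CPM (1502 to 1539) in microglia. The border level was 2.62 times the microglial one (2.54 to 2.70). After thinning each cell to 2000 UMIs, Ccl2 was found in 62.9% of border macrophages and 52.4% of microglia. In choroid plexus epithelial cells, taken here as a gauge of background, the thinned share was 2.31%, with median depths before thinning of 4393, 6507.5 and 10880 UMIs in border macrophages, microglia and choroid plexus cells. This gauge keeps the barcodes that Scrublet called doublets. Without them the choroid plexus cells held 41 Ccl2 UMIs in place of 218. Most cells of both macrophage types held Ccl2, and the levels did not overlap within counting error.

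Ccl7 separated the macrophages more widely. It stood at 3353 CPM (3250.4 to 3458) in border macrophages against 434 CPM (425 to 444) in microglia, a ratio of 7.72 (7.43 to 8.02). It was found in 60.1% of thinned border macrophages and 26.1% of thinned microglia. In microglia the richest 10% of cells held 70.3% of Ccl7 UMIs, so the microglial level came largely from a minority. Ccl2 outnumbered Ccl7 by 3.50 UMIs to 1 in microglia but by only 1.19 to 1 in border macrophages, both counted at transcript ends.

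Ccl12 differed least of the 3, with 2072 CPM (1991 to 2155) in border macrophages and 1232 CPM (1215 to 1249) in microglia. The ratio was 1.68 (1.61 to 1.75), and the thinned shares of cells were 63.7% and 52.7%. Its 93.9 CPM in the recruited-type group rested on 42 UMIs, of which 35 lay in 1 cell.

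Ccl8, whose product acts on Ccr8 in the mouse, stood apart from its neighbour Ccl12. It had 1256 UMIs in 122 of 261 border macrophages, at 1043 CPM (987 to 1103). Microglia had 75 UMIs in 24 of 2454 cells, at 4.45 CPM (3.50 to 5.58), and 33 of those UMIs lay in 1 cell. The ratio of 234 (186 to 299.97) compares with 1.68 for Ccl12. Within border macrophages Ccl8 was unevenly held: it was found in 39.9% of thinned cells, and the richest 10% of cells held 74.0% of its UMIs. Cells that the gates left without a type held 24.0% of all Ccl8 UMIs, the largest such share among the 10 genes, and their levels are not assigned to a cell type.

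Ccl24, the eotaxin, was the member most restricted to border macrophages. Border macrophages held 754 UMIs in 135 of 261 cells, at 626 CPM (582 to 673), which was 93.9% of its UMIs in gated cells. Microglia held 16 UMIs, 1 in each of 16 cells, at 0.950 CPM (0.543 to 1.54), so the ratio was 659.5 (403 to 1159.8). None was found in the recruited-type group, where 3 UMIs would have been 6.71 CPM, nor in T or NK cells, where they would have been 32.2 CPM. Among 147 astrocytes none had a UMI of Ccl24 or Ccl8, for which the exact 95% interval of the share of cells with a UMI reaches 2.48%.

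Ccl3 and Ccl4 were highest in microglia and were found in nearly all of them. Ccl4 stood at 2082 CPM (2001 to 2165) in border macrophages, 1332 CPM (1108 to 1588) in T or NK cells, 753 CPM (675 to 838) in the recruited-type group and 10279.9 CPM (10232 to 10328) in microglia. None of these 4 intervals overlap, and the border level was 0.203 times the microglial one (0.195 to 0.211). At 2000 UMIs a microglial cell had a median of 18 Ccl4 UMIs, with quartiles of 8 and 30.5 and a highest value of 118. A thinned border macrophage had a median of 1 and a highest value of 65. The thinned share of cells was 50.8% in border macrophages and 94.3% in microglia, against 8.25% in choroid plexus cells.

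Ccl3 followed with 1838 CPM (1762 to 1916) in border macrophages and 3756 CPM (3727 to 3785) in microglia, a ratio of 0.489 (0.469 to 0.510). The recruited-type group, at 393 CPM (338 to 456), and T or NK cells, at 279 CPM (182 to 409), overlapped. The thinned shares were 67.7% in border macrophages and 87.1% in microglia, so in border macrophages Ccl3 was found in more cells than Ccl4 although its summed level was lower. The Ccl4 to Ccl3 UMI ratio was 1.13 (1.07 to 1.20) in border macrophages, 1.91 (1.59 to 2.31) in the recruited-type group, 4.77 (3.11 to 7.59) in T or NK cells and 2.74 (2.71 to 2.76) in microglia. In border macrophages 1 cell held 348 of the 2506 Ccl4 UMIs, against 2212 Ccl3 UMIs in all. The ratio near 1 and the order of the 2 summed levels there lean on that cell.

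Ccl5, a T cell and monocyte attractant, had a different order from every other member. It stood at 5567 CPM (5350.5 to 5790.1) in the recruited-type group, 3189.5 CPM (2837 to 3574) in T or NK cells and 1559 CPM (1541 to 1578) in microglia. It was found in 24 of 27 recruited-type cells and 13 of 23 T or NK cells, and their levels were 3.57 times (3.42 to 3.72) and 2.05 times (1.82 to 2.29) the microglial one. Border macrophages had only 113 CPM (94.8 to 134), 0.0725 times the microglial level, from 136 UMIs in 22 cells with 64 of them in 1 cell. That fraction was below the one for Cx3cr1, a microglial receptor gene, which stood in border macrophages at 11.0% of its microglial level. In microglia Ccl5 was found in 48.1% of thinned cells, with a median of 0 and a highest value of 71 UMIs, and the richest 10% of cells held 65.7% of it. Ccl5 made up 71.4% of the chemokine UMIs of the recruited-type group, 65.4% of those of T or NK cells and 8.26% of those of microglia.

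**Figure D2:**
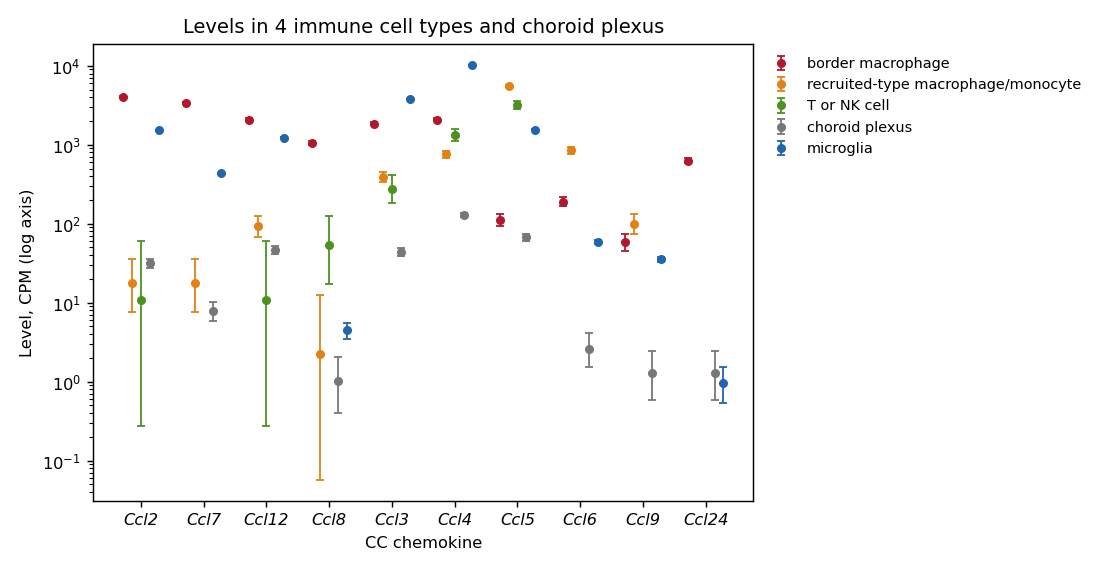
Level of each chemokine in CPM (log axis) with exact 95% Poisson intervals in border macrophages, the recruited-type group, T or NK cells, choroid plexus cells and microglia, values of 0 not drawn. Border macrophages lie above microglia for 7 of the 10 genes, and microglia lie above border macrophages for Ccl3, Ccl4 and Ccl5.

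The Ccr1 ligands Ccl6 and Ccl9 had low levels and the same order of the 3 macrophage groups. Ccl6 stood at 190.2 CPM (166 to 217) in border macrophages, 847 CPM (764 to 937) in the recruited-type group and 58.5 CPM (54.9 to 62.2) in microglia. The recruited-type level was 14.5 times the microglial one (12.8 to 16.3), and 18 of 27 recruited-type cells held a UMI. Ccl9 stood at 58.2 CPM (45.3 to 73.5) in border macrophages, 101 CPM (73.4 to 135) in the recruited-type group and 35.3 CPM (32.5 to 38.2) in microglia. For Ccl9 the first 2 intervals overlap. T or NK cells held 0 UMIs of both genes, where 3 UMIs would have been 32.2 CPM. For Ccl9 the interval there reaches 113% of the microglial level, so the 0 does not place T or NK cells below microglia.

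Low levels of several members were read in types with no known myeloid origin, and macrophage genes were read there too. In endothelial cells Ccl4 stood at 4.85% and Ccl3 at 4.92% of their microglial levels, while C1qa, a complement gene of macrophages, stood at 5.66% and Csf1r at 5.49%. In astrocytes, the cell type of the Cre driver, Ccl4 stood at 160 CPM (129 to 196), 1.56% of its microglial level (1.26 to 1.91), Ccl2 at 2.24% (1.37 to 3.46) and C1qa at 1.88% (1.60 to 2.20). In T or NK cells Ccl4 stood at 0.130 times its microglial level (an interval of 10.8% to 15.4%), above C1qa at 6.24% (4.96 to 7.75). Ccl3 stood at 7.43% (4.86 to 10.9) there and overlapped C1qa. Of the 82 C1qa UMIs in T or NK cells 79 lay in 1 of 23 cells, so C1qa is a weak gauge for this type. Without the barcodes that Scrublet called doublets, the astrocyte level of Ccl4 was 90.4 CPM, 0.877% of its microglial level, with C1qa at 0.528%. Astrocyte Ccl5 was then at 1.55% (0.849 to 2.61) from 14 UMIs. The endothelial level of Ccl4 was then 143 CPM, 1.38% of the microglial one, with Ccl3 at 1.52%, Ccl2 at 1.66% and C1qa at 1.64%. Endothelial Ccl5, at 2.78% (2.46 to 3.14), and Ccl6, at 15.7% (11.7 to 20.5) from 56 UMIs in 10 cells, lay above C1qa. Endothelial Ccl8, at 154% (87.1 to 267), came from 22 UMIs in 4 cells. In ependymal cells Ccl5, Ccl7 and Ccl2 were then at 2.82% (2.40 to 3.29), 2.20% (1.53 to 3.07) and 2.08% (1.72 to 2.49), above C1qa at 0.408%, while Ccl4 was at 0.418%. In choroid plexus cells Ccl5 was at 2.25% and C1qa at 0.405%. The source of these UMIs was not tested.

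**Figure D3:**
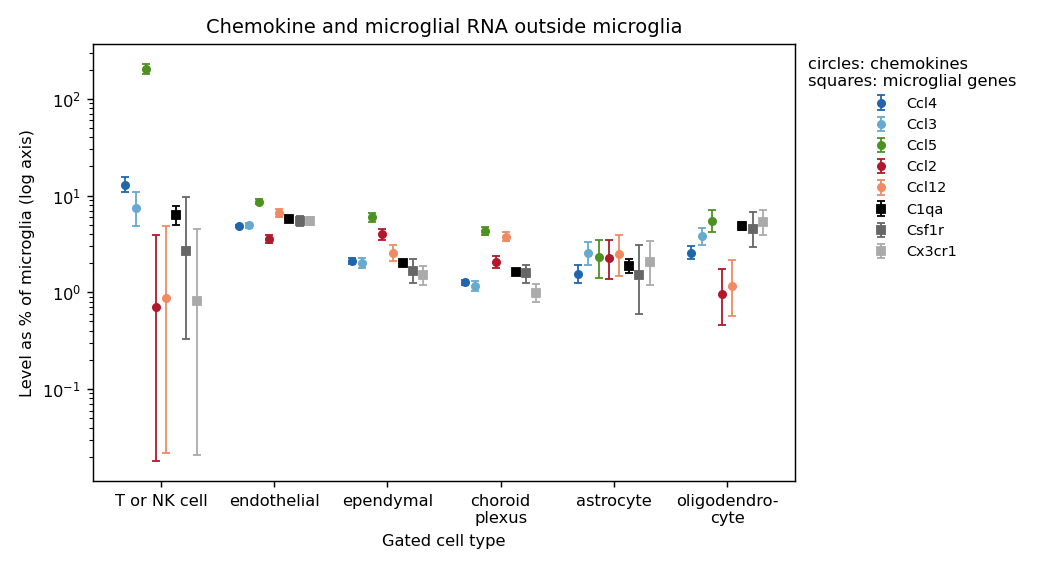
Levels of 5 chemokines (circles) and of the macrophage genes C1qa, Csf1r and Cx3cr1 (squares) in 6 types as a percentage of the level in microglia, on a log axis. With doublets kept, these 5 chemokines lie near the macrophage genes in endothelial cells and astrocytes, with Ccl5 the highest point in endothelial cells. In T or NK cells Ccl5 lies far above 100%.

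Single cells commonly held several chemokines. At 2000 UMIs the median cell held 4 of the 10 in border macrophages and 4 in microglia, and at least 5 were found in 44.8% of 248 border macrophages and 30.5% of 2387 microglia. A thinned border macrophage had a median of 21 chemokine UMIs and a thinned microglial cell a median of 33. None of the 10 was found in 2.02% of border macrophages and 0.922% of microglia, against 85.6% of choroid plexus cells.

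Ccl2 and Ccl7, which are neighbouring genes, were found in the same cells in both macrophage types. In border macrophages 78.8% of cells with Ccl2 held Ccl7, against 28.3% of cells without Ccl2, a share ratio of 2.79. In microglia the shares were 38.5% and 12.6%, a share ratio of 3.06. The correlation of their log2 values over cells was 0.763 in 248 border macrophages and 0.396 in 2387 microglia, all from 1 library. For Ccl3 and Ccl4 it was 0.424 in border macrophages and 0.721 in microglia, where 97.7% of cells with Ccl3 held Ccl4, against 71.3% of cells without Ccl3.

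How many pairs stood out depended on which gene of a pair was taken first. Counting the share of the second gene given the first, in the order of the opening list, 11 of 36 border macrophage pairs and 2 of 28 microglial pairs had a share ratio of at least 1.5. Counting the share of the first given the second, 6 of 36 border macrophage pairs and 9 of 28 microglial pairs did, so the pair counts give no order of the macrophage types. The medians over pairs were 1.32 in border macrophages and 1.07 in microglia in the one direction and 1.19 and 1.06 in the other. With most microglia holding Ccl3 and Ccl4, the share ratio of finding these genes has little room above 1. Ccl7 was found in 19 of the 21 thinned border macrophages with Ccl9 and in 149 of all 248, at a share ratio of 1.58. Ccl12 was found in 73 of the 99 with Ccl8 and in 158 of all 248, at a share ratio of only 1.29. The genes most restricted to border macrophages, Ccl8 and Ccl24, were found together in 40 cells, at a share ratio of 0.956, with a correlation over cells of -0.19. In microglia Ccl5 went with fewer of some partners: Ccl9 was found in 3.31% of cells with Ccl5 and 9.52% of cells without it, and Ccl5 in 45.0% of cells with Ccl2 and 51.5% of cells without it.

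**Figure D4:**
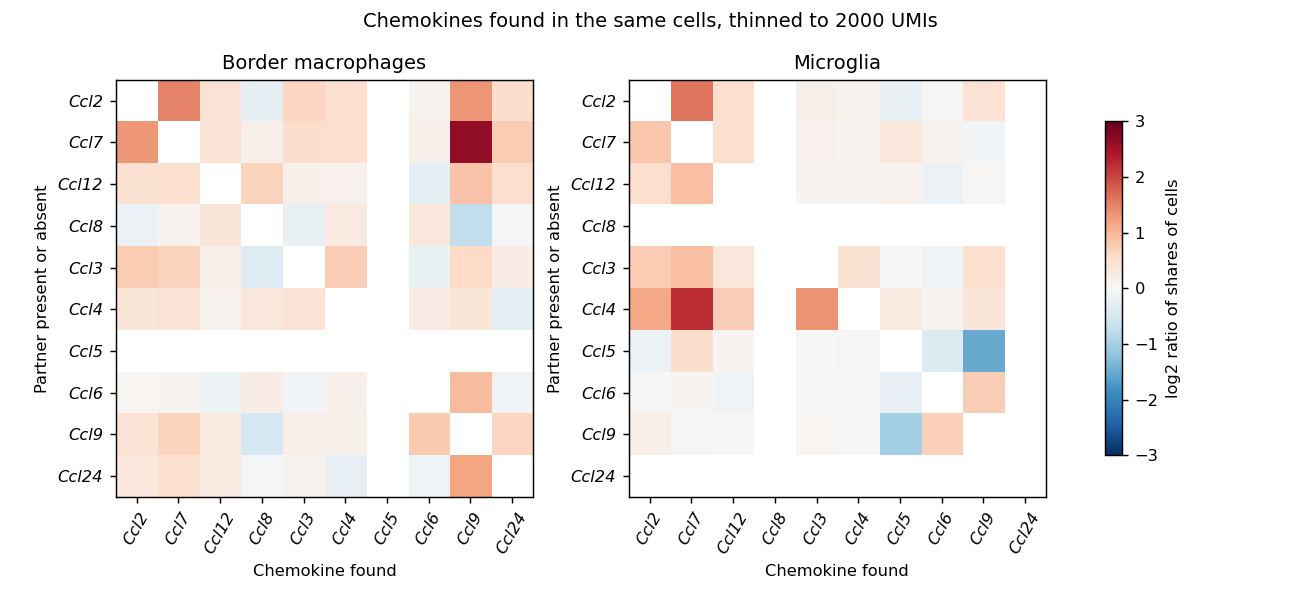
Log2 of the share ratio of finding the column's chemokine in cells with against cells without the row's, thinned to 2000 UMIs, in border macrophages (left) and microglia (right), with pairs under the cell minimum blank. The Ccl2 and Ccl7 squares are red in both panels, and Ccl5 with Ccl9 is blue in microglia.

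To see what else the chemokine-holding cells differed in, cells with a chemokine were compared with cells of the same type without it, leaving the Ccl genes out of the totals. A gene counts as higher or lower at a ratio past 2-fold with an interval wholly on one side of 1. The cells were split by their own RNA, so the ratios describe cells of 1 library. Microglia with at least 5 Ccl3 and Ccl4 UMIs per 2000 were 2084 cells, against 303 other microglia, with median depths of 6685.5 and 5552 UMIs. Of 12215 genes measured, 0.819% were higher and 2.14% lower.

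Cells high in Ccl3 and Ccl4 also held more of some other inflammatory genes and less of some damage-associated genes. In the NF-kappaB list 3 of 20 genes were higher and 0 lower: Tnf at 2.74 times (2.46 to 3.06), Il1a at 2.52 and Il1b at 2.04, all cytokines. In the immediate early and dissociation list 3 of 20 were higher, among them the transcription factor genes Egr3 at 3.76 times (3.19 to 4.46) and Egr2 at 2.72. The list medians were 0.44 and 0.48 on the log2 scale, against -0.06 over all genes. Of 15 damage-associated genes 5 were lower and 0 higher, with Gpnmb at 0.145 times, Spp1 at 0.149 and Igf1 at 0.241, and a list median of -0.51. Markers of the border gate, also macrophage genes, summed to 90.3 CPM in the high cells and 276 CPM in the others (3 of 6 lower), and mural markers to 20.6 and 1.57 CPM (4 of 6 higher); their part was not tested. Interferon response genes (0 of 18) and homeostatic microglial genes (0 of 12) had none past 2-fold either way. Outside the lists Edn1, which encodes endothelin, was 3.95 times and Rcan1, a calcineurin regulator, 3.27 times the level in other microglia. Jchain, Slpi and Ly6c2, at 42.1, 43.7 and 36.6 times, rested on 71, 27 and 27 cells, and with at least 50 Ccl3 and Ccl4 UMIs required they were at 0.0222, 0.0219 and 0.0131 times. With that requirement, 398 cells against 1989, 0.54% of genes were higher and 1.78% lower, Tnf was at 2.17 times and Egr3 at 2.20, and Gpnmb at 0.114. Only 1 of 20 NF-kappaB genes and 1 of 20 immediate early genes were then higher, with list medians of 0.30 and 0.49. Of the 15 damage-associated genes 4 were lower. Among the members, with at least 5 UMIs required, Ccl2 was at 4.19 times (3.91 to 4.51), Ccl7 at 5.72, Ccl12 at 2.35 and Ccl5 at 0.678. With at least 50 UMIs required, Ccl2 was at 2.13 times, Ccl7 at 1.76, Ccl12 at 1.82 and Ccl5 at 0.602.

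Microglia high in Ccl2 held more Egr3 and Egr2 and less of some damage-associated genes. They were 746 cells with at least 3 UMIs per 2000, against 1137 with 0, and 1.09% of 11781 genes were higher and 1.43% lower. Egr3 was at 3.16 times (2.95 to 3.40) and Egr2 at 2.44, the 2 immediate early genes that were higher, and 5 of 15 damage-associated genes were lower, with Gpnmb at 0.0919. No NF-kappaB gene passed 2-fold in either direction, and the median of that list was 0.26. Recruited-type markers summed to 233 CPM in the high cells and 139 CPM in the others, and their part was not tested.

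Microglia high in Ccl12 held more of several interferon response genes. They were 623 cells with at least 3 UMIs against 1128 with 0, and 0.881% of 11803 genes were higher and 2.15% lower. Of 18 interferon response genes 6 were higher and 0 lower, with Ifit1 at 2.74 times (2.37 to 3.17), Ifit2 at 2.48 and Isg15 at 2.26, and a list median of 0.66. Cxcl11 and Cxcl10, interferon-induced chemokines of the CXC family, were at 4.42 and 2.81 times. No immediate early gene passed 2-fold, with a list median of 0.08, and 5 of 15 damage-associated genes were lower, among them Spp1 at 0.167. Recruited-type markers summed to 324 CPM in the high cells and 110.1 CPM in the others (1 of 4 higher). Border markers summed to 70.9 and 136 CPM (3 of 6 lower), and mural markers to 5.42 and 32.7 CPM (3 of 4 lower). The part of these markers was not tested.

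Microglia high in Ccl5 held more of some interferon and damage-associated genes and less of some immediate early, NF-kappaB and homeostatic genes. They were 618 cells with at least 3 UMIs against 1240 with 0, with median depths of 7707.5 and 5738.5 UMIs, and 1.51% of 11926 genes were higher and 4.16% lower. Of 18 interferon genes 5 were higher and 0 lower, with Rsad2, an antiviral enzyme, at 3.46 times (3.14 to 3.81). Of 20 immediate early genes 6 were lower, with Jun at 0.232 times (0.224 to 0.242) and the heat shock gene Hspa1a at 0.335, and 3 NF-kappaB genes were lower, among them Icam1 at 0.403 and Nfkbia at 0.422. The damage-associated genes Lgals3, Fabp5 and Gpnmb were higher, at 3.09, 2.98 and 2.36 times, and the homeostatic genes P2ry12 and Siglech, which are also markers of the microglial gate, were lower, at 0.499 and 0.495. No MHC class II gene passed 2-fold, with a list median of 0.69. Cxcl9, an interferon-gamma-induced T cell attractant, was at 9.78 times (9.03 to 10.6) over 429 cells. The markers of the microglial gate summed to 4138 CPM in high cells and 6030.2 CPM in the other microglia. Recruited-type markers summed to 218 and 149 CPM, and mural markers to 50.7 and 6.49 CPM (3 of 6 higher). The part of these markers in the ratios was not tested.

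**Figure D5:**
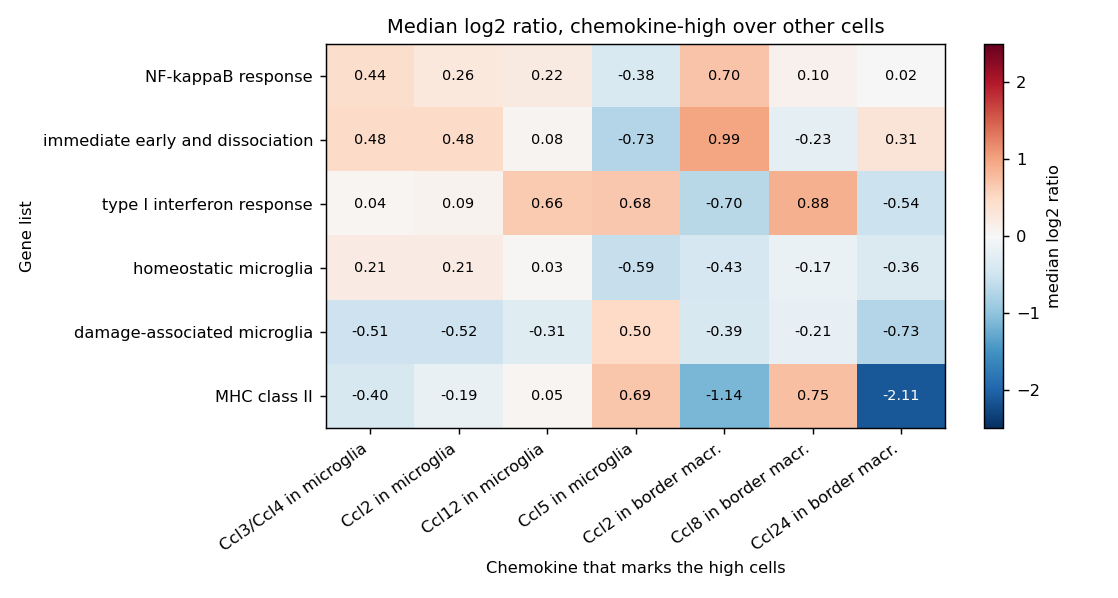
Median log2 ratio, high over other cells, of 6 gene lists in 7 comparisons within border macrophages and microglia. The interferon list is positive for Ccl12 and Ccl5 microglia and Ccl8 border macrophages, the immediate early list is negative for Ccl5 microglia, and MHC class II is most negative for Ccl24 border macrophages.

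In border macrophages, 131 cells with at least 3 Ccl2 UMIs were set against 92 with 0, and 3.06% of 8554 genes were higher and 2.62% lower. Of 20 immediate early genes 10 were higher and 0 lower, with Egr2 at 6.67 times (4.61 to 9.98), Egr3 at 4.84 and Nr4a1 at 4.01, and a list median of 0.99. Of 20 NF-kappaB genes 8 were higher and 1 lower, among them Nfkbid at 2.53 and Nfkbiz at 2.41, both regulators of NF-kappaB itself. Of 18 interferon genes 3 were lower, with Rsad2 at 0.370, and 4 of 7 MHC class II genes, which present antigen, were lower, with H2-Eb1 at 0.384 (0.345 to 0.428). The neutrophil attractant Cxcl2 was at 7.41 times (5.72 to 9.74) over 60 cells. Ccl7 was at 9.40 times (8.28 to 10.7), Ccl24 at 2.87 and Ccl8 at 0.484, or 0.633 (0.557 to 0.720) without the cell richest in Ccl8. Astrocyte markers summed to 122 CPM in the high cells and 36.3 CPM in the others, endothelial markers to 229.8 and 99.3 CPM, ependymal markers to 63.4 and 19.4 CPM and recruited-type markers to 82.4 and 172 CPM; their part was not tested.

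Border macrophages with Ccl8 were 99 cells, against 149 without, and 2.54% of 8788 genes were higher and 1.98% lower. Of 18 interferon response genes 8 were higher and 0 lower, with Irf7 at 2.77 times (2.09 to 3.70) and Ifit1 at 3.89 (1.75 to 9.51), and a list median of 0.88. No immediate early gene passed 2-fold and the list median was -0.23. Ccl5 was at 11.8 times (6.86 to 21.7), from 121 UMIs in cells with Ccl8 and 15 in cells without, and at 5.69 times (3.18 to 10.8) without the cell that held 64 of them. Cxcl9 was at 28.5 times, but 63.8% of its UMIs lay in 1 of 15 cells. Recruited-type markers summed to 211 CPM in cells with Ccl8 and 105 CPM in the others, astrocyte markers to 42.2 and 108 CPM and ependymal markers to 14.8 and 60.7 CPM; their part was not tested.

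Border macrophages with Ccl24 were 103 cells, against 145 without, and 2.56% of 8788 genes were higher and 2.48% lower. Of 7 MHC class II genes 6 were lower: H2-Eb1 had 189 UMIs in cells with Ccl24 and 1538 in cells without, 0.181 times (0.155 to 0.211), and Cd74, the chain that escorts class II molecules, was at 0.268 times (0.243 to 0.296). The list median was -2.11 on the log2 scale, against 0.03 over all genes. Of 18 interferon genes 3 were lower, with Irf7 at 0.332, and 6 of 12 damage-associated genes were lower. Recruited-type markers summed to 31.8 CPM in cells with Ccl24 and 227 CPM in the others, and the border markers to 14609 and 10209 CPM. Astrocyte markers summed to 127 and 50.4 CPM (4 of 5 higher), endothelial markers to 258 and 108 CPM and ependymal markers to 72.0 and 21.6 CPM. Their part was not tested. Ccl2 was at 2.28 times, Ccl7 at 2.05 and Ccl5 at 0.142, or 0.289 without the cell richest in Ccl5.

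The receptors of CC chemokines described here were mostly low, while the atypical receptor Ccrl2 was read in most microglia. Ccr1 stood at 125 CPM (106 to 147) in border macrophages, 24.6 in the recruited-type group and 4.16 in microglia. Ccrl2, which binds chemerin, stood at 110 CPM (91.8 to 130) in border macrophages, 662 (589 to 742) in the recruited-type group and 640 (628 to 652) in microglia, and the last 2 overlap. Ccr2 was read in T or NK cells with 7 UMIs, in the recruited-type group with 8 UMIs in 2 cells and in microglia with 19 UMIs, and border macrophages had 0. Ccr8 had 10 UMIs in 5 T or NK cells, and Ccr3, the receptor of Ccl24, had 1 UMI in border macrophages.

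Over the 11 cell types, the genes whose log2 levels ran most like each member are given as a description, with points that share 1 library. Ccl6 ran most like Pirb (r = 0.971) and Ccl9 like Tlr13 (0.953), and the r between Ccl6 and Ccl9 themselves was 0.966. Ccl3 ran most like Cd86 (0.968) and Ccl4 like Vsir (0.957), with 0.957 between them. Ccl2 ran most like Tnfrsf17 (0.970), Ccl7 like Stab1 (0.946), a marker of the border gate, and Ccl12 like BC035044 (0.966). Ccl5 ran most like Glipr1 (0.980), Ccl24 like Ms4a4a (0.995) and Ccl8, with the weakest likeness, like Dok3 (0.838). For the neighbours Ccl12 and Ccl8, whose promoters are printed above, r was 0.536, and for Ccl2 and Ccl12 it was 0.952.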

How the data were processed

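Single-cell RNA was measured in 1 library. The deposited values are UMI counts per gene and barcode. The submitters' processing notes name Cell Ranger 8.0.1 and GRCm39 for the authors' counting. The matrix holds 6672 barcodes, and 187 failed the minimum of 500 genes or the maximum of 15% mitochondrial UMIs. The 6485 left hold 41760631 UMIs. The chromatin samples were not analysed here.

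Cells were gated on 123 marker genes of 16 types, of which 3 (Fcrls, Igkc, Pifo) were not matched. A cell took the type with the largest share of markers detected, with at least 3 markers and a lead of 0.15 over the next type, and 632 cells (9.75%) took none. These 2 limits were set after the data were seen. Types with at least 20 cells are reported. Doublets were kept: the 261 barcodes (4.02%) that Scrublet in scanpy called at an expected rate of 0.05 were removed only as an alternative.

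UMIs were summed per type and divided by the type's total (CPM), with exact 95% Poisson intervals, Clopper-Pearson intervals for shares and exact binomial intervals for ratios. UMIs of 1 cell are not independent, so these cover counting error only. A level of 0 is given with the level of 3 UMIs. Shares of cells, pairs and high cells used cells thinned at random to 2000 UMIs (seed 0), which 5932 cells reach. Library ends were counted, so no scaling by length was made. High cells were compared with others on summed counts without Ccl genes. A gene was measured with at least 10 UMIs over both groups, and log2 ratios had 0.5 UMI added. Only the comparison on Ccl3 and Ccl4 was planned; those on other chemokines were added after the data were seen. Genes named are the members, the receptors, list genes with the largest ratios and the genes outside the lists with the largest ratios, and some genes that meet this rule are not reported here. The members and lists were chosen with earlier results of these data known. The comparison was also run on simulated counts with known fold changes. Those counts were independent draws from 1 summed microglial profile, so the run cannot show how clustering of UMIs in cells affects the intervals. No test across samples was possible. Alternatives varied the gate, cell filter, doublets, weighing of cells, background and thresholds. Tools were Python 3.11.15, numpy 2.4.6, scipy 1.17.1, pandas 2.3.3, scanpy 1.11.5 and matplotlib 3.10.9.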

Additional observations from a re-analysis of the deposited data

How the results depend on the processing

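The types with the highest level (border macrophages for 5 chemokines, microglia for 2, the recruited-type group for 3) and the 7 of 10 chemokines higher in border macrophages than in microglia kept those counts under 6 alternatives. These were a gate with 1 more marker, a lead of 0.25, a stricter cell filter, Scrublet calls removed, cells weighed equally, and the level in ependymal and choroid plexus cells subtracted. The values of the ratios of border macrophages to microglia were less stable than these counts. They counted as moved for 5 of the 10 genes with cells weighed equally, 4 with a lead of 0.25 and 3 with that level subtracted. The level in the highest type moved by at most 1.24-fold, for Ccl9 with cells weighed equally (81.0 CPM). Chemokine levels in endothelial, ependymal, choroid plexus and astrocyte cells were lower by over 1.5 times for Ccl4 when Scrublet calls were removed. The share of pairs with a share ratio of at least 1.5, 30.6% in border macrophages and 7.14% in microglia, was 57.1% and 23.8% with at least 2 UMIs asked of a cell, and 11.1% in microglia without thinning; the cause was not tested. With the share of the first gene given the second, added after the data were seen, it was 16.7% in border macrophages and 32.1% in microglia, the opposite order. The genes 2-fold higher in microglia high in Ccl3 and Ccl4 numbered 100, and 66 with at least 50 UMIs asked, where fewer cells are in the high group. Of 84 list medians under alternatives, 1 changed sign: NF-kappaB genes in border macrophages with Ccl24, 0.02 as reported and -0.043 with the stricter filter. None of the 84 moved by more than 0.14 on the log2 scale. No paired analysis was possible because each sample is the sole one of its group. The small groups (27 recruited-type cells, 23 T or NK cells) and counting error limit their levels, and 1 cell holds 30.8% of the chemokine UMIs of T or NK cells.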

Other observations

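Other CC ligands were sparse. Ccl1, a ligand of Ccr8, had 23 UMIs in 2 T or NK cells, and Ccr8 itself was read in 5 T or NK cells. Endothelial cells had 63 UMIs of Ccl1, all in 1 cell. Ccl26, which lies beside Ccl24, had 10 UMIs in 10 cells, all border macrophages. Ccl25, a ligand of Ccr9, stood at 36.7 CPM in ependymal cells from 141 UMIs. Ccl19, a ligand of Ccr7, had 47 UMIs in 40 endothelial cells. Ccl22, a ligand of Ccr4, had 48 UMIs in 36 microglia, and Ccl20 had 0 in all 11 types. The atypical receptors Ackr4 and Ackr1 were read outside the myeloid cells, Ackr4 in 89 choroid plexus cells at 15.2 CPM and Ackr1, the endothelial receptor that carries chemokines across venules, in 26 endothelial cells at 9.72 CPM.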
